A study of Mus musculus with 6 samples.

Results

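The mitochondrial genome of the mouse encodes a small set of respiratory chain proteins, and 10 of their mRNAs were followed here in synaptoneurosomes, the pinched-off synaptic terminals and spines that are isolated from brain homogenate by filtration. The members were listed by name: mt-Nd1, mt-Nd2, mt-Nd4, mt-Nd5 and mt-Nd6 of complex I, mt-Cytb of complex III, mt-Co1, mt-Co2 and mt-Co3 of complex IV, and mt-Atp6 of complex V. They are 10 of the 21958 protein-coding genes counted, and all 10 passed the filter on low counts, with 12255 genes tested. The question was how each of these mRNAs was represented among polyribosomal RNA after stimulation of the NMDA receptor, relative to total RNA without stimulation.

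The samples came from FVB mice of 6 to 8 weeks, from the hippocampus and the cortex next to it, and each preparation pooled several animals. In 3 libraries, synaptoneurosomes had been given 50 µM NMDA with 10 µM glutamate for 30 sec, then 120 µM of the NMDA receptor antagonist APV, and had been incubated for 20 min at body temperature before light and heavy polyribosomes were collected from a sucrose gradient. In the other 3 libraries, total RNA was taken from synaptoneurosomes that were not stimulated and, according to the methods of the study, were kept on ice with cycloheximide, a blocker of cytosolic ribosomes. Stimulation, the warm incubation, the ice with cycloheximide and the RNA fraction changed together, so their effects cannot be told apart. Nor can fewer mitochondria be told apart from less RNA per mitochondrion, or fewer cells of a type from less RNA per cell, in bulk samples of this kind.

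As background, mitochondria transcribe both strands of their circular genome into long precursors and cut these at the tRNAs that lie between most of the genes. The resulting mRNAs are translated inside the organelle by mitochondrial ribosomes, whereas all other subunits of the respiratory complexes are made by cytosolic ribosomes from nuclear genes. Complex I takes electrons from NADH, complex III passes them from ubiquinol to cytochrome c, complex IV passes them to oxygen, and complex V makes ATP. Synapses depend on this supply for vesicle cycling and ion pumping.

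The nuclear genome also holds copies of mitochondrial DNA. A read whose sequence is identical in such a copy cannot be assigned to its source by that sequence alone. For each member, every stretch of 100 bases, the length of a sequenced read, was searched in 141730 annotated transcripts of GRCm38. Reads were paired and the search took single stretches, so it does not show which pairs could be assigned. No stretch of mt-Nd1, mt-Nd5, mt-Nd6 or mt-Cytb was found in another gene. In mt-Nd2 3.19% of the stretches were shared, in mt-Co1 30.8% and in mt-Nd4 60.8%. In mt-Co2, mt-Atp6 and mt-Co3 the shared part was 99.5%, 99.5% and 99.9%. The copies of the 10 genes were 8 unprocessed pseudogenes, 5 of them on the minus strand of chromosome 1 between positions 24611535 and 24616197 and the other 3 on chromosome 2. None of them is listed in the table of protein-coding genes used here.

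The starts of 3 members with a full-length copy are shown because the copy cannot be distinguished from them over its aligned length. They are all in lower case, since no base differs.
mt-Co2, chrM:7013-7092, plus strand: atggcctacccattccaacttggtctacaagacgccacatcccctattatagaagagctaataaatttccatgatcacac
Gm28661, chr1:24615486-24615565, minus strand: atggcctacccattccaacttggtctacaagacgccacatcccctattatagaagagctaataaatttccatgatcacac
mt-Atp6, chrM:7927-8006, plus strand, identical to Gm10925 at chr1:24614572-24614651: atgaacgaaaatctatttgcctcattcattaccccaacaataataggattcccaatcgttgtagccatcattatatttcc
mt-Co3, chrM:8607-8686, plus strand, identical to Gm28437 at chr1:24613892-24613971: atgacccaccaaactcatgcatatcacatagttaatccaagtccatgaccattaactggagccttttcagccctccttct
Over the whole aligned length there were 0 differences in 681 bases for mt-Co2, 0 in 678 for mt-Atp6 and 0 in 783 for mt-Co3. The copy of mt-Nd4, Gm28439, had 0 differences in the 876 bases it covers, from the start of the gene.

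A diverged copy is shown for contrast, with the differing bases in capitals. In this stretch of 80 bases there were 5 differences, and over 510 aligned bases there were 17.
mt-Nd2, chrM:4615-4694, plus strand: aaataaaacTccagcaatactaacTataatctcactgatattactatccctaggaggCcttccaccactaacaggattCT
Gm13339, chr2:22590281-22590360, minus strand: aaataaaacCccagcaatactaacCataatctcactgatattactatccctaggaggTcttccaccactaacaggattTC
The starts of 2 members with no shared stretch follow, since such genes are among those with a called difference.
mt-Nd1, chrM:2751-2830, plus strand: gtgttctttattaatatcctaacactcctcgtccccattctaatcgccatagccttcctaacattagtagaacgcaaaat
mt-Cytb, chrM:14145-14224, plus strand: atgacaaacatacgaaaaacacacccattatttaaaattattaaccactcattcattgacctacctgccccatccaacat

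Some mitochondrially encoded genes overlap each other. The members mt-Atp6 and mt-Co3 share 1 base at chrM:8607. The last 43 bases of mt-Atp8, chrM:7927-7969, are also the start of mt-Atp6 and read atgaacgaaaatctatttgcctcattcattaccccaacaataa. The genes mt-Nd5 and mt-Nd6 lie on opposite strands and share 14 bases at chrM:13552-13565, ttaatctcgagtaa on the plus strand. mt-Nd6 is the only member on the minus strand. Libraries were made strand-specific, but whether strand was used in counting was not stated, so counts of mt-Nd6 may include reads of the opposite strand.

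Between 5294482 and 7361580 counts were assigned in each polyribosome library, and between 1044955 and 3738022 in each total RNA library. The 12 neuronal and dendritic markers were all detected. Summed levels of astrocyte and of microglial markers were higher in every polyribosome library than in any total RNA library. Those of oligodendrocyte markers overlapped between the groups. The 11 astrocyte markers summed to 52480 to 58549 CPM (counts scaled to a common library size with TMM normalization) on polyribosomes and 40251 to 45771 CPM in total RNA, and all 11 were higher in mean level on polyribosomes (median log2 fold change 0.61). All 10 oligodendrocyte markers were positive as well (median 0.47), with sums of 11358 to 15336 and 8173 to 11459 CPM, and so were all 10 microglial markers (median 0.40), with sums of 956 to 1111 and 628 to 863 CPM. Of the neuronal markers 9 of 12 were positive (median 0.11), with sums of 15026 to 19506 and 12819 to 18182 CPM, and of the endothelial markers 6 of 8 (median 0.34), with sums of 313 to 573 and 330 to 360 CPM. The part of cell composition in the results below was not tested.

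The 10 mRNAs took a smaller share of all counts in every polyribosome library than in any total RNA library. The share was 1.64%, 2.39% and 1.38% in polyribosome replicates 1, 2 and 3, against 3.44%, 4.28% and 3.87% in total RNA. The difference of the means was -2.06 percentage points (two-sided exact permutation test, p = 0.1, the smallest that 3 against 3 libraries allow). The 95% Wilson intervals of single libraries, which cover counting error only, were narrow beside this difference, for example 1.37% to 1.39% in polyribosome replicate 3 and 3.83% to 3.90% in total RNA replicate 3.

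Gene by gene, 5 of the 10 were lower on polyribosomes and 0 higher when p-values from the quasi-likelihood test of edgeR, adjusted over all genes tested by the Benjamini-Hochberg method, were held to 0.01. Of all genes tested, 2.36% were called lower and 0.71% higher in this fit. The 5 were mt-Nd1, mt-Nd2, mt-Nd4, mt-Nd5 and mt-Cytb. With an offset for GC content and length, mt-Nd4 (adjusted p = 0.0109) and mt-Nd5 (adjusted p = 0.0575) no longer passed. With the replicate number as a block, mt-Nd6 and mt-Co1 passed too, giving 7 lower and 0 higher, against 13.2% of all genes called lower in that fit. In these 7 genes all 3 polyribosome libraries lay below all 3 total RNA libraries, as in 18.9% of all genes tested. In none of the 10 did all 3 polyribosome libraries lie above, as they did in 17.4% of all genes. The median log2 fold change of the 10 was -1.0, against 0.00 for all genes tested. Without total RNA replicate 2, 0 of the 10 passed the threshold, as did only 22 genes in all, while the median stayed at -0.89.

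**Figure D1:**
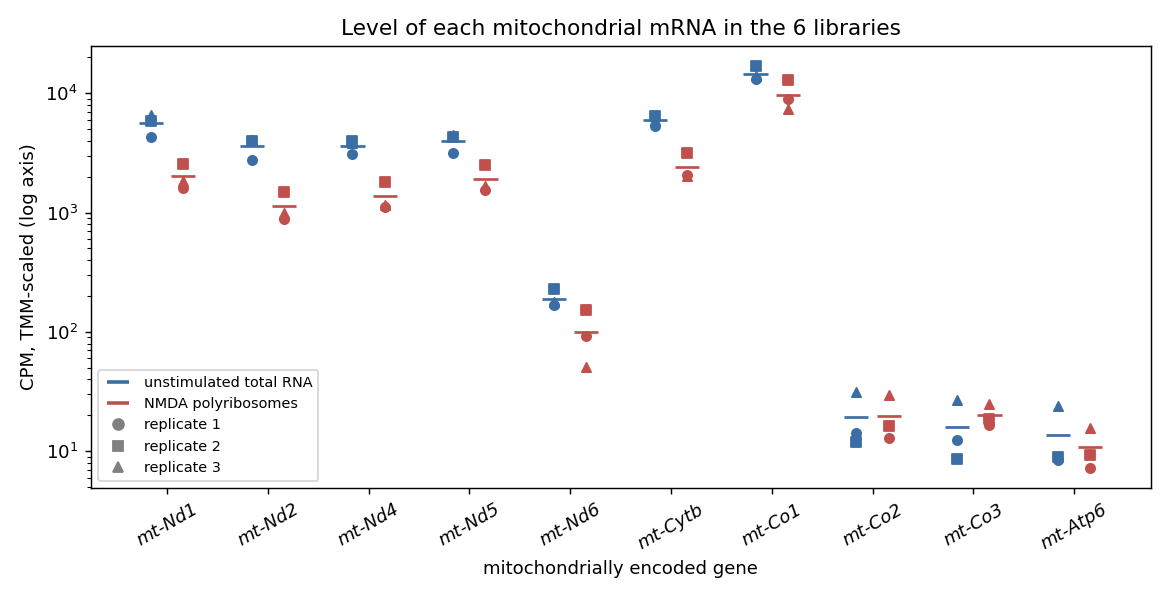
Level of each of the 10 mRNAs in TMM-scaled CPM on a log axis, with a point for each library of the 3 NMDA polyribosome and 3 unstimulated total RNA libraries. mt-Co1 reaches 16837 CPM, mt-Co2, mt-Co3 and mt-Atp6 stay at or below 31.6 CPM, and the 2 groups of points are separate in the 7 more abundant genes.

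The 5 mRNAs of complex I encode membrane subunits of its proton-pumping arm. Of these, mt-Nd2 (chrM:3914-4951) had the lowest log2 fold change of the 10. It was at 889, 1494 and 993 CPM on polyribosomes and at 2774, 3958 and 4028 CPM in total RNA, 3.19-fold lower on polyribosomes (log2 fold change -1.67, standard error 0.23, adjusted p = 0.0014, edgeR). The highest polyribosome library was below the lowest total RNA library by more than 1000 CPM. Among the 12255 genes tested, mt-Nd2 had rank 32 from the lowest log2 fold change.

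mt-Nd1 (chrM:2751-3707), a subunit at the junction with the ubiquinone site, was at 1612, 2569 and 1849 CPM on polyribosomes and at 4327, 5880 and 6522 CPM in total RNA. The groups did not overlap and differed 2.77-fold (log2 fold change -1.47, standard error 0.22, adjusted p = 0.00198). mt-Nd4 (chrM:10167-11544), at 1113, 1815 and 1158 against 3075, 3983 and 3820 CPM, was 2.66-fold lower (log2 fold change -1.41, standard error 0.22, adjusted p = 0.00217). For both genes polyribosome replicate 2 was the highest of its group, as it was for all 7 abundant members.

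mt-Nd5 (chrM:11742-13565) is the longest of the 10 genes. Its level was 1552, 2520 and 1670 CPM on polyribosomes and 3177, 4325 and 4412 CPM in total RNA, 2.07-fold lower on polyribosomes (log2 fold change -1.05, standard error 0.22, adjusted p = 0.00946). The groups did not overlap, but the adjusted p was just under the threshold and ranged from 0.0108 to 0.0551 when any single library was left out.

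mt-Nd6 (chrM:13552-14070) was the least abundant member of complex I. It was at 93.1, 153 and 51.3 CPM on polyribosomes and at 167, 227 and 176 CPM in total RNA. The groups did not overlap, though polyribosome replicate 2 came close to the lowest total RNA library. On the log2 scale the difference was -0.94 (standard error 0.29, adjusted p = 0.0406). In the blocked fit it was -1.0 (standard error 0.13, adjusted p = 7.3e-10). The log2 differences within the same-numbered pairs were -0.84, -0.57 and -1.78 (SD 0.64), so that pair 3 stood apart from the others. For mt-Nd1, whose pairs had an SD of 0.32, the blocked standard error was also 0.13. The blocked p-value of mt-Nd6 therefore does not reflect the wider spread of its own pairs.

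Complex III has a single subunit encoded in mitochondria, cytochrome b. Its mRNA mt-Cytb (chrM:14145-15288) was at 2041, 3150 and 2017 CPM on polyribosomes and at 5329, 6478 and 5905 CPM in total RNA, without overlap. It was 2.46-fold lower on polyribosomes (log2 fold change -1.30, standard error 0.21, adjusted p = 0.00305).

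mt-Co1 encodes the catalytic subunit of complex IV, which carries the heme groups and the site of oxygen reduction. It lies at chrM:5328-6872 and had the second highest mean level of all genes tested. The level was 8965, 12898 and 7283 CPM on polyribosomes and 13044, 16837 and 13801 CPM in total RNA. The groups were separated by less at their nearest points than either group varied within itself. The difference was -0.58 on the log2 scale (standard error 0.23, 95% interval -1.07 to -0.10, adjusted p = 0.0918), and in the blocked fit -0.62 (adjusted p = 1.5e-04). All 3 pairs were negative, at -0.54, -0.38 and -0.92.

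The other complex IV mRNAs, mt-Co2 and mt-Co3, and mt-Atp6 of complex V were counted at a low level in all libraries, and no difference was called in the unblocked or the blocked fit. mt-Co2 (chrM:7013-7696), whose protein receives electrons from cytochrome c, was at 13.0, 16.4 and 29.6 CPM on polyribosomes and at 14.2, 12.1 and 31.6 CPM in total RNA. Its groups overlapped (log2 fold change 0.20, 95% interval -0.53 to 0.93, adjusted p = 0.732). mt-Atp6 (chrM:7927-8607), the proton channel subunit of the ATP synthase, was at 7.30, 9.34 and 15.9 against 8.44, 9.04 and 24 CPM (log2 fold change -0.12, 95% interval -0.90 to 0.66, adjusted p = 0.850). mt-Co3 (chrM:8607-9390) was at 16.8, 18.8 and 24.9 against 12.4, 8.71 and 26.9 CPM (log2 fold change 0.54, 95% interval -0.10 to 1.18, adjusted p = 0.229). It was called higher when the block was joined with an offset for GC content and length (0.63, adjusted p = 0.0045, edgeR). Its log2 differences within the same-numbered pairs were 0.43, 1.11 and -0.11 (SD 0.61), so that pair 3 went the other way. As for mt-Nd6, this blocked p-value does not reflect the wider spread of its own pairs. In all 3 genes replicate 3 was the highest library of both groups. Leaving out single libraries moved the log2 fold change of mt-Co3 from 0.22 when replicate 2 of total RNA was omitted to 0.90 when its replicate 3 was.

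The counts behind these 3 genes were few. On polyribosomes mt-Co2 had 96, 109 and 144 counts, mt-Co3 124, 125 and 121, and mt-Atp6 54, 62 and 77. In total RNA mt-Co2 had 57, 36 and 33 counts, mt-Co3 50, 26 and 28, and mt-Atp6 34, 27 and 25. By comparison, mt-Co1 had 35376 to 85629 counts on polyribosomes and 14392 to 52531 in total RNA. The 3 remaining mitochondrially encoded genes, mt-Nd3, mt-Nd4l and mt-Atp8, did not exceed 16 counts in any library. mt-Nd3 had 0 counts in total RNA replicate 3, which allows a level of up to 2.88 CPM.

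**Figure D2:**
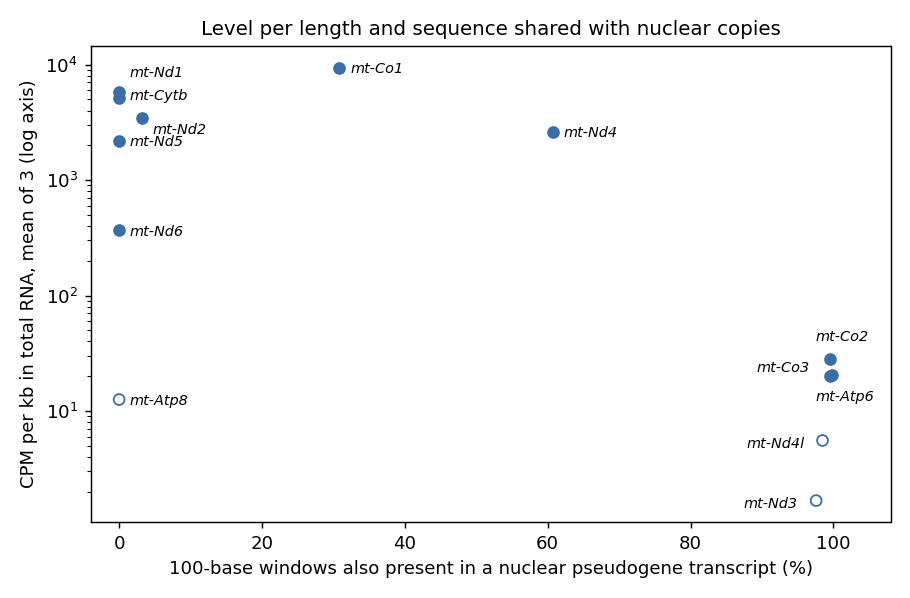
Mean level in total RNA (CPM per kb of gene length, log axis, 3 libraries) against the percentage of 100-base stretches that also occur in a nuclear pseudogene transcript, for the 10 genes (filled) and the 3 other mitochondrially encoded genes (open). The 3 filled points at 99.5% or more lie between 20.3 and 28.2 CPM per kb, and mt-Nd4 at 60.8% lies at 2631 CPM per kb. The open point of mt-Atp8, at 0% in the annotated transcripts searched, lies as low as the points near 100%.

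Compared per length, the level in total RNA ran from mt-Co1 with 9425 ± 1299 CPM per kb (SD, n = 3) through mt-Nd1 with 5827 ± 1179, mt-Cytb with 5161 ± 502, mt-Nd2 with 3455 ± 679, mt-Nd4 with 2631 ± 351 and mt-Nd5 with 2177 ± 378 to mt-Nd6 with 366 ± 62.1 CPM per kb. Far below these came mt-Co2 with 28.2 ± 15.7, mt-Co3 with 20.4 ± 12.2 and mt-Atp6 with 20.3 ± 12.9 CPM per kb. Among the 7 abundant genes, only the neighbours mt-Nd1 and mt-Cytb changed order between total RNA libraries. mt-Nd2 was above mt-Nd4 in all 3, by 824 ± 344 CPM per kb (mean and SD of the differences within a library), and mt-Nd4 above mt-Nd5 in all 3, by 454 ± 88.9. Of the 3 lowest genes, mt-Co3 and mt-Atp6 changed order, with a difference of 0.10 ± 2.95 CPM per kb. On polyribosomes mt-Co1 again led with 6288 ± 1865 CPM per kb, and mt-Nd2, mt-Nd5 and mt-Nd4 lay close together at 1084 ± 312, 1049 ± 289 and 988 ± 285, in this order in all 3 libraries. When only stretches without a nuclear copy were counted as length, with all counts kept, mt-Nd4 reached 7223 and mt-Co1 14561 CPM per kb in total RNA. On this length mt-Nd1 and mt-Cytb, without a shared stretch, were at 6499 and 5650, since a gene holds fewer 100-base stretches than bases. These values take no read of a shared stretch to have been counted, which was not tested.

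The 3 genes with nearly all of their sequence in a pseudogene were those with the fewest counts among the 10. Outside the 10, mt-Atp8 had no shared stretch in the transcripts searched and also few counts, from 3 to 14 in total RNA. Its last 43 bases are also the start of mt-Atp6, of which Gm10925 is a copy. No copy is annotated on chromosome 1 between Gm10925, which ends at 24614651, and Gm28661, which starts at 24614885. Genome sequence was not searched there, so whether it holds a copy of mt-Atp8 was not tested. The summed level of mt-Co2, mt-Co3 and mt-Atp6 was 37.1, 44.6 and 70.4 CPM on polyribosomes and 35.0, 29.8 and 82.5 CPM in total RNA. The median log2 fold change of these 3 genes was 0.20. Where no stretch was shared, in mt-Nd1, mt-Nd5, mt-Nd6 and mt-Cytb, log2 fold changes ran from -1.47 to -0.94 with a median of -1.17. For the partly shared genes mt-Nd2, mt-Nd4 and mt-Co1 they ran from -1.67 to -0.58. Across the 10 genes the Spearman coefficient of the log2 fold change was 0.66 with the shared percentage, -0.53 with the mean level, -0.39 with length and 0.37 with GC content. The genes share their libraries and these features go together, so the coefficients are descriptions. How reads with more than 1 matching place were counted was not stated, and the part of the shared sequence in the low counts was not tested.

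**Figure D3:**
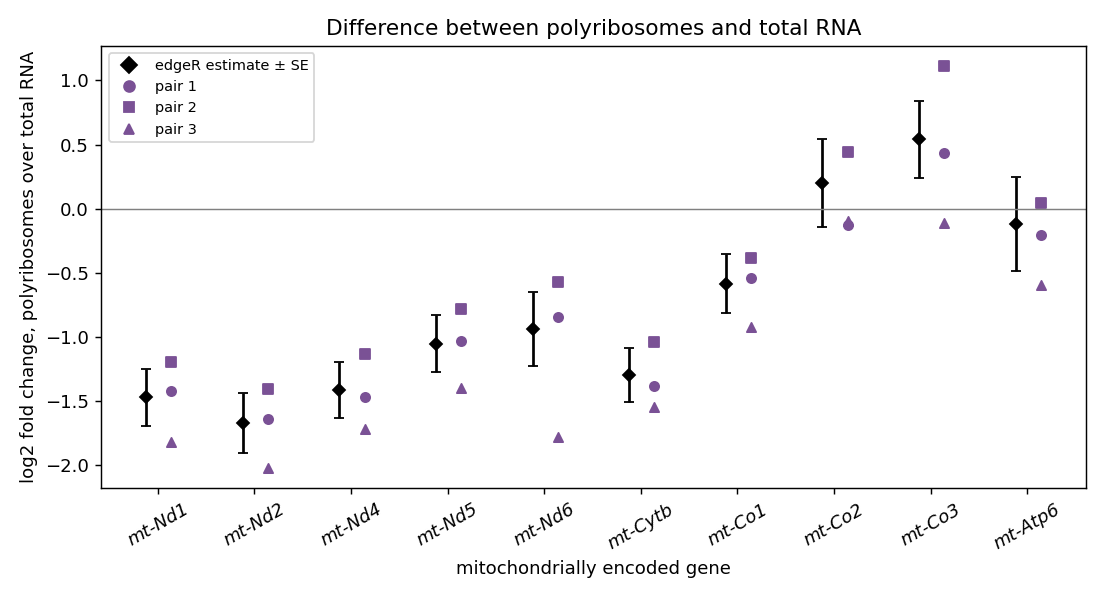
Log2 fold change of each gene, NMDA polyribosomes over unstimulated total RNA, with its standard error from edgeR as a bar and the 3 same-numbered pairs as small points. The bars of 7 genes lie below 0, from mt-Nd2 at -1.67 to mt-Co1 at -0.58, and those of mt-Co2 and mt-Atp6 cross 0. The bar of mt-Co3 lies above 0, but its wider confidence interval given in the text, -0.10 to 1.18, crosses 0.

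The abundant mRNAs did not differ to the same extent, which showed in their proportions within the 10. mt-Co1 made up 51.9% ± 3.39 (SD, n = 3) of the counts on the 10 genes on polyribosomes and 38.9% ± 2.89 in total RNA, a difference of 12.9 percentage points. The lowest polyribosome library was at 48.3% and the highest total RNA library at 40.9%. The shares of mt-Nd1, mt-Nd2, mt-Nd4 and mt-Cytb were smaller on polyribosomes without overlap, with differences of -3.97, -3.49, -2.39 and -2.93 percentage points. The share of mt-Nd5 was 10.3% ± 0.77 against 10.6% ± 0.74, and that of mt-Nd6 was 0.510% ± 0.15 against 0.508% ± 0.046, both with overlapping groups. The small share of mt-Co3 was 0.115% ± 0.046 against 0.0430% ± 0.024, without overlap, although its levels in CPM did overlap. A share among the 10 also rises when the counts on the other members fall. The shares of mt-Co2 and mt-Atp6 overlapped. For mt-Co1, mt-Co3 and the 4 genes with a lower share the two-sided exact permutation test gave p = 0.1, the smallest possible (0.167 after Benjamini-Hochberg adjustment over the 10 genes), so none passed a threshold of 0.05.

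Measured within pairs, mt-Co1 stood above the median of the other 5 well-covered genes (mean count of at least 1000) by 0.88, 0.75 and 0.80 on the log2 scale, a mean of 0.81 ± 0.07 (SD over 3 pairs). mt-Nd5 stood above the median of its 5 counterparts by 0.36 ± 0.04, and mt-Cytb by 0.10 ± 0.07. Below the median were mt-Nd4 at -0.12 ± 0.05, mt-Nd1 at -0.15 ± 0.11 and mt-Nd2 at -0.36 ± 0.11. The order of the 6 was the same in every pair except that mt-Nd1 and mt-Nd4 changed places in pair 1. Since the shift of a whole library cancels in these values, they do not depend on the scaling of the libraries.

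**Figure D4:**
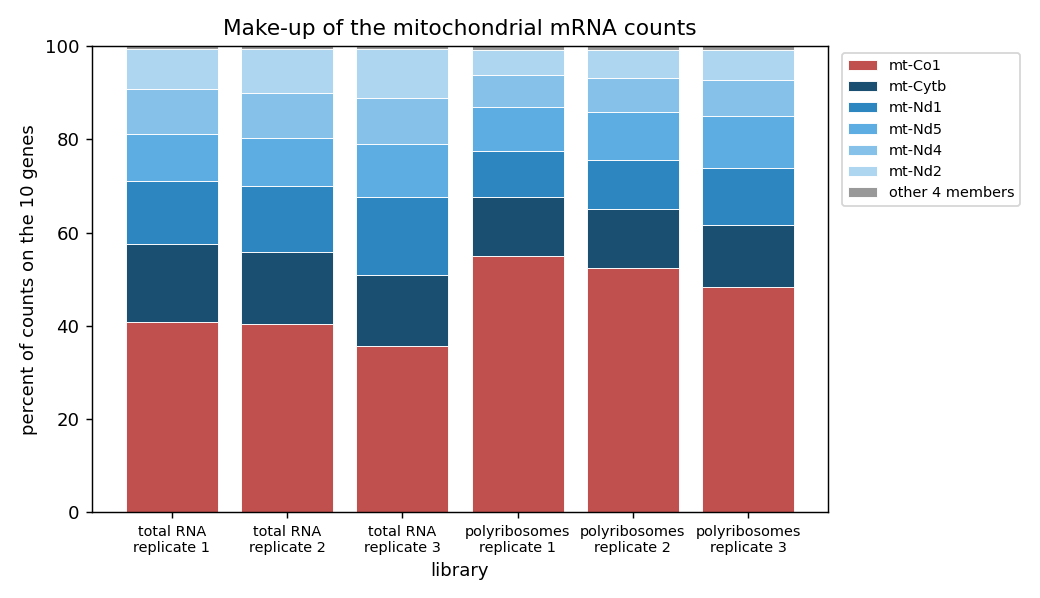
Percentage of the counts on the 10 genes that fell on each gene, in each of the 6 libraries, as stacked bars from 0 to 100%. The mt-Co1 part averages 51.9% in the 3 polyribosome bars and 38.9% in the 3 total RNA bars.

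The nuclear genes whose products assemble with these subunits are translated on cytosolic ribosomes, and most of their mRNAs had positive log2 fold changes, though few passed the threshold. Of 72 nuclear-encoded subunits of complexes I, III, IV and V, 70 were positive on the log2 scale, as were 50.1% of all genes tested, and their median was 0.51. Only 4 passed the threshold in the unblocked fit, all higher on polyribosomes, and with the replicate block 39 were higher and 0 lower (background in that direction 0.71% and 11.8%). In 53 of the 72 all polyribosome libraries lay above all total RNA libraries, against the 17.4% of all genes given above. The 2 negative values were those of Ndufb9 at -0.21 and Uqcrh at -0.07.

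In complex I, 35 of 36 nuclear genes were positive with a median of 0.49, and none was called without the block and 17 with it. The highest values were those of Ndufs7 (0.94), a subunit that carries an iron-sulfur cluster, and of the accessory subunits Ndufb6 (0.87) and Ndufb10 (0.84), with adjusted p-values of 0.0131, 0.0149 and 0.0237. In complex III the median of 9 genes was 0.56, and Uqcrc1, a core subunit, was at 212 CPM on polyribosomes and 119 CPM in total RNA (adjusted p = 0.0116). In complex IV, Cox5a was at 94.6 ± 9.0 CPM on polyribosomes and 52.1 ± 2.77 CPM in total RNA (SD, n = 3, log2 fold change 0.86, standard error 0.16, adjusted p = 0.00600), and Cox6a1 at 255 ± 36.6 and 142 ± 13.2 CPM (0.85, standard error 0.17, adjusted p = 0.00829). These 2 were the called genes of 11, with a median of 0.41. In complex V the median of 16 genes was 0.59, and Atp5d, a subunit of the central stalk, was at 150.1 ± 28.2 and 67.5 ± 13.2 CPM (log2 fold change 1.17, standard error 0.20, adjusted p = 0.00336). Atp5g3, which encodes the ring subunit c, was at 155 ± 43.4 and 77.4 ± 14.2 CPM (1.02, standard error 0.21, adjusted p = 0.00917). In complex II, which has no mitochondrially encoded subunit, all 4 genes were positive with a median of 0.36, and 0 were called (2 with the block), with Sdhc the highest at 0.70 (adjusted p = 0.0198).

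The counts on mitochondrially encoded genes were then set beside those on nuclear genes of the same complex in each library. For complex I this ratio was 2.86, 4.44 and 2.5 on polyribosomes and 8.83, 12.3 and 14.4 in total RNA. For complex III it was 2.54, 3.88 and 1.98 against 8.56, 10.8 and 9.67, and for complex IV 4.61, 6.08 and 3.14 against 7.86, 10.1 and 9.07. In complexes I, III and IV every polyribosome library was below every total RNA library. In complex V, where mt-Atp6 was the counted gene, the ratio was 0.0029, 0.0038 and 0.0050 on polyribosomes and 0.0049, 0.0051 and 0.0144 in total RNA, and the groups overlapped. The ratios are not per length and describe libraries within a complex, not complexes against each other.

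**Figure D5:**
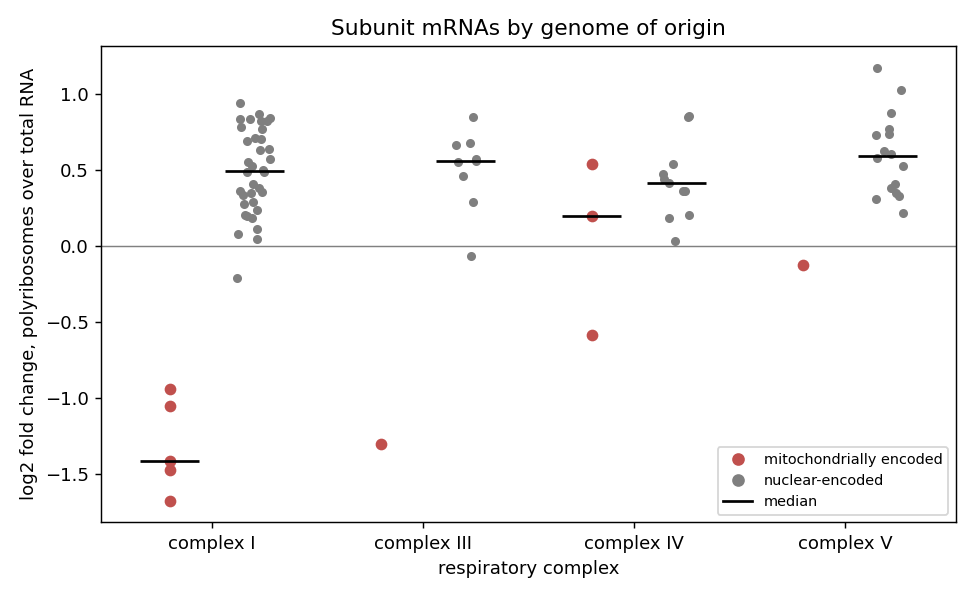
Log2 fold change (NMDA polyribosomes over unstimulated total RNA) of mitochondrially encoded and nuclear-encoded subunit mRNAs of complexes I, III, IV and V, with a point for each gene. In complexes I and III the mitochondrial points, from -1.67 to -0.94, lie below all nuclear ones, and in complex IV mt-Co2 (0.20) and mt-Co3 (0.54) lie within the range of the nuclear genes.

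Factors needed to make, process and translate mitochondrial RNA are nuclear-encoded too. Of 32 such genes tested, from a list of 36, 22 were negative and 10 positive on the log2 scale, with a median of -0.19, where 50.1% of all genes were positive. Mtif2, the initiation factor of mitochondrial ribosomes that recruits the starter tRNA, was lower on polyribosomes, at 7.65 ± 0.22 CPM against 15.8 ± 4.46 CPM (log2 fold change -1.12, standard error 0.23, adjusted p = 0.00853), and was the single call of the list, so that its count lies near the 2.36% of all genes called lower. Fastkd5, which acts in processing of mitochondrial transcripts, was at -1.34 with a low level of 1.14 CPM on polyribosomes and 3.05 CPM in total RNA (adjusted p = 0.0451). Trmt10c, a subunit of mitochondrial RNase P, was at -1.03 (adjusted p = 0.114), and Ptcd3, a protein of the mitochondrial small ribosomal subunit, at -0.75 (adjusted p = 0.0439). With the replicate block 2 of the 32 were higher and 2 lower, smaller shares than the 11.8% and 13.2% of all genes in that fit.

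Of the 76 mitochondrial ribosomal protein genes tested, 56 were positive, against 50.1% of all genes, with a median of 0.21, and none was called. The largest values were those of Mrps12 at 1.07 (adjusted p = 0.0311), Mrpl14 at 1.02 (adjusted p = 0.0713) and Mrpl2 at 0.98 (adjusted p = 0.0285). With the block 6 were higher and 1 lower, again below the shares of all genes, 11.8% and 13.2%.

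The genes whose log2 CPM over the 6 libraries was most like the mean profile of the 10 mRNAs were sought among 8950 genes with at least 10 CPM on average. They were N28178 (Pearson r = 0.992), Rabgef1 (0.986), Nemf (0.984), Nol4 (0.981) and Atxn7l1 (0.980), all on nuclear chromosomes. Their log2 fold changes lay between -0.41 and -0.70, and none was called in the unblocked fit. The mean profile was itself lower in every polyribosome library than in any total RNA library. The genes were chosen for likeness to that profile over the same libraries, so their lower level on polyribosomes follows from the choice. Fits on these libraries therefore cannot test it. The coefficients describe 6 libraries that fall into 2 groups and are given without a test.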

How the data were processed

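RNA-seq of 3 polyribosome and 3 total RNA libraries was analysed. According to the methods, RNA was depleted of ribosomal RNA, libraries were strand-specific, and paired reads of 100 nt were mapped to GRCm38 with STAR (2.5.2b per the labels) and counted on Gencode vM6 basic with custom scripts. The methods describe the total RNA both as a saved aliquot of synaptoneurosomes and as a part of the cleared lysate. Polyribosomes came from cleared lysate, so whether the groups also differed in this step is not known. The authors deposited whole-number counts per protein-coding gene without normalization. Columns of the authors' DESeq2 comparison (mean signal, log2 fold change and error, Wald score, p-value) were deposited too and not used. Replicates differed by more than sampling noise.

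The quasi-likelihood test of edgeR 4.0.16 (R 4.3.3) was run after TMM and filterByExpr with group as sole term, at an adjusted p under 0.01. Levels are CPM on TMM-scaled libraries. Where nothing says that replicates are separate preparations, p-values measure the spread between these libraries. In the edgeR fits the variance of a gene is estimated together with that of other genes. Pairing by number was accepted because a preparation was divided into aliquots, same-numbered libraries carry a common header in the table, and across genes they deviated together from their groups (correlations of 0.37, 0.26 and 0.38). Alternatives were DESeq2 1.42.0, other scalings, no filter, blocking on the replicate number, a GC and length offset, and leaving out each library. Single values were compared by exact permutation tests over libraries.

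Coordinates, sequences and pseudogenes were read from Gencode vM21 (GRCm38). The coordinates of the 13 mitochondrially encoded genes equal the deposited ones. Named were all members, the 3 other mitochondrially encoded genes, of each nuclear list the called genes and up to 3 others with large values, and the 5 genes of the most similar profile. The members and lists were chosen with earlier results of these data known.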

Additional observations from a re-analysis of the deposited data

How the results depend on the processing

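Of the 10 mRNAs, 5 were called lower with DESeq2, with upper-quartile scaling, with total counts only and with scaling on nuclear genes alone, 4 with RLE size factors (mt-Nd5 lost) and 6 without a filter (mt-Nd6 gained). Total counts only moved the median of all genes to -0.11. The replicate block gave 7 lower and, joined with the GC and length offset, 6 lower and 1 higher. The latter was mt-Co3 (log2 fold change 0.63), whose pair 3 was negative (-0.11). That offset without the block left 3 (mt-Nd1, mt-Nd2 and mt-Cytb) of 64 genes called lower in all. With the offset, adding the block brought mt-Nd4, mt-Nd5 and mt-Nd6 past the threshold, while mt-Co1 did not pass (adjusted p = 0.0103). Without the offset the block changed the calls of mt-Nd6 and mt-Co1 alone among the 10. Leaving out single libraries gave 0 to 4 called lower, 0 without total RNA replicate 2. The median of the 10 stayed negative, from -1.34 to -0.80 over left-out libraries, and was -0.72 with the offset. The difference in share of all counts kept its sign, from -2.35 to -1.85 percentage points over left-out libraries. mt-Atp6 turned positive with the offset alone (0.16), and over left-out libraries ran from -0.43 to 0.27, mt-Co2 from -0.16 to 0.55. The difference in share among the 10 was 0.12 percentage points for mt-Nd5 with counts per kb, and over left-out libraries ran from -0.69 to 0.11 for mt-Nd5 and from -0.052 to 0.088 for mt-Nd6. Causes of these shifts were not tested. An alternative limited to bases found once in the genome was not run, as no genome sequence was used here. Counts of 25 to 144 limit what can be seen for mt-Co2, mt-Co3 and mt-Atp6. The level per unshared length was chosen after seeing the data.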
